A study of Homo sapiens with 20 samples.

Results

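A set of 7 genes of the cyclic AMP pathway were examined in HepG2 cells for skipped-exon usage, junction reads per gene and association with the RNA-binding protein FUBP1. The genes were GNAS, PRKAR1A, PRKAR2A, PRKACA, PRKACB, CREB1 and CREM, and every skipped-exon event carrying one of these symbols was taken. This gave 28 of 19792 events in the siFUBP1 table, 42 of 32990 in the U3 table and 12 of 7065 in the siFBL table, together with 7 of 28278 genes in the FUBP1 RIP table. The set was chosen by one earlier result of these data, the inclusion levels of a PRKAR1A exon under U3 ASO and GFP ASO. For that reason the U3 values of these genes are given as a description, with no p-value, and counts past a threshold in that table stand beside the share over all events or genes with nothing read from them.

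HepG2 is a human hepatoblastoma line. All 8 groups, 20 samples in total, were this line, and they differed in what was depleted, in the harvest time and in how the RNA was recovered. Cells transfected with siFUBP1 (3 samples) were compared with siCtrl2 (3), both harvested at 48 h, and cells given U3 ASO (3) were compared with GFP ASO (3), both harvested at 72 h. U3 ASO is an antisense oligonucleotide against the U3 small nucleolar RNA, which acts in ribosomal RNA processing, and GFP ASO is directed against a sequence the cells do not carry. Cells transfected with siFBL or siCtrl, harvested at 48 h, gave 2 input and 2 FUBP1 RIP samples each, and FBL encodes fibrillarin, the enzyme that places 2′-O-methyl groups on RNA. In RIP-seq an antibody recovers FUBP1 together with the RNA bound to it, and enrichment is the RIP level over the input level. The labels give 1 siRNA for FUBP1 and 1 for FBL, so each depletion rests on a single reagent. The paper describes biological replicates, 3 for the knockdown RNA-seq and 2 for RIP-seq. Neither it nor the labels state whether these came from separate cultures, so the tests measure the spread between these samples.

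Cyclic AMP is made by adenylyl cyclases, which the stimulatory G protein α subunit, encoded by GNAS, turns on when a hormone receptor is occupied. Protein kinase A is held inactive by regulatory subunits (PRKAR1A, PRKAR2A) until cyclic AMP binds them and frees the catalytic subunits (PRKACA, PRKACB). The freed kinase phosphorylates CREB1 and its relative CREM, transcription factors that in liver drive the fasting response to glucagon.

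Junction reads summed over all events came to 2693397 to 4474350 per library in the siFUBP1 table, 11249641 to 13321799 in the U3 table and 910779 to 1142189 in the siFBL table. Levels per gene are given below as RPM, the reads of a gene's best covered event per 1000000 of these, and for FUBP1 itself they fell from 44.4, 56.0 and 50.3 RPM in siCtrl2 to 8.26, 10.1 and 4.08 in siFUBP1. FUBP1 also read lower under U3 ASO, at 20.3, 17.7 and 11.5 RPM against 26.3, 25.9 and 24.1. For FBL, the authors' mean normalised count over RIP and input was 1034 in siCtrl and 164 in siFBL, and for FUBP1 it was 14257 and 8689, each condition having been normalised on its own. Of 12 hepatocyte markers, 9 to 11 reached a mean of 10 junction reads in a listed event of each table, ALB and APOB among them. The 13 markers of blood cells, fibroblasts and endothelium did not. In the RIP table the authors' mean counts of those 13 in siCtrl lay between 0.172 and 92.8 except for PDGFRB, at 1003. The summed hepatocyte markers stood at 16561 and 16603 RPM in siCtrl2 and siFUBP1, and at 15971 and 10755 in GFP ASO and U3 ASO. They stood at 42908 and 46285 RPM in the siCtrl and siFBL inputs.

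The splice sites behind the 2 exons on which most values turn are shown here from the hg38 reference, 5′ to 3′ on the gene's strand, because the events differ only in which sites were joined. For PRKAR1A (ENSG00000108946.17, chromosome 17, plus strand) the exon lies at chr17:68514987-68515119, 133 bases long. In GENCODE release 44 it belongs to 6 transcripts, 5 of them coding, and in all 5 it lies in the 5′ untranslated leader. It is skipped when a first exon is joined directly to exon 2 (chr17:68515394-68515576), where the coding sequence opens. Most of these reads came from first exons called here 1a, ending at 68512142, and 1b, ending 406 bases downstream at 68512548. Exon 1b opens the canonical transcript. In the donor lines the capitals mark the GT that opens the intron, and in the acceptor lines the AG that ends it.
First exon 1a, donor: acagGTaaggaggg
First exon 1b, donor: ccagGTgagtgggg
Leader exon, donor: agagGTtagtggct
Leader exon, acceptor: tgacttgctttcgcttacAGttga
Exon 2, acceptor: tgtgtgtttttttctcgcAGagaa

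Of the last 20 intron bases before the leader exon, 8 were T, and 63.9% of the 25834 exons tested in the U3 table had at least as many. Exon 2 had 11 T in the same window, a count reached by 24.6%.

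For GNAS (ENSG00000087460.29, chromosome 20, plus strand) the exon is exon 3 of 13, at chr20:58898941-58898985. It is 45 bases long and lies within the coding sequence of 23 coding transcripts, so that the long and short forms of the protein differ by it. Both forms can continue into exon 4 at either of 2 acceptors 3 bases apart, at 58903528 and 58903531. The capitals in the exon 4 line mark the bases between these acceptors.
GNAS exon 2, donor: gagaGTaagtgtca
GNAS exon 3, acceptor: tttcaatctctctttaaaAGgggc
GNAS exon 3, donor: atggGTaggcacat
GNAS exon 4, both acceptors: ttttcttttcaatcccactgCAGtgaga

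The downstream acceptor follows AG, as introns usually do, whereas the upstream acceptor follows TG. Over the acceptors of the next exon in all tested events, AG preceded 99.9% in each table. TG preceded 1 of 23075 in the U3 table, 1 of 13247 in the siFUBP1 table and 1 of 4567 in the siFBL table, and in each case it was this GNAS site. Pairs of next-exon acceptors 3 bases apart were listed for 0.231% to 0.327% of the combinations of a tested exon and a donor. The sites are called the TG and AG acceptors below. The reads were aligned with a penalty for junctions outside the usual splice-site bases, and whether that lowered the reads at the TG acceptor was not tested.

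An inclusion level is the share of transcripts holding the exon, from 0 to 1, computed from junction reads scaled by the number of positions they can cover. Events averaging 10 or more junction reads were tested, and an event was called at an adjusted p under 0.1. Of the 28 events in the siFUBP1 table, 26 were tested and 0 were called, against 0.197% of all 16213 events (quasi-binomial test). At an unadjusted p under 0.05 the count was also 0, where 4.58% of all events passed. Of the 12 events in the siFBL table, 8 were tested and 0 were called, as were 0 of all 5218 (0%). There 2 of the 8, both of GNAS exon 3, had an unadjusted p under 0.05, against 2.26% of all. Of the 42 events in the U3 table, 39 were tested and 1 was called beside a background of 0.226%, and 2 had an unadjusted p under 0.05 beside 4.13%. That event is the PRKAR1A event with which the genes were chosen, and nothing is read from the count. Libraries of the compared groups did not overlap in 2 of 26, 3 of 39 and 2 of 8 events, against 5.05%, 6.03% and 13.8% of all events in the siFUBP1, U3 and siFBL tables. The median change over the members was -0.000835 after siFUBP1, 0.0063 under U3 ASO and 0.0411 after siFBL, beside -0.00139, -0.00355 and -0.00326 over all events.

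GNAS encodes the α subunit that links receptors to adenylyl cyclase, and its exon 3 had higher inclusion levels in siFBL input than in siCtrl input at both acceptors, without passing the test. At the TG acceptor the inclusion level was 0.154 and 0.120 in the siCtrl inputs and 0.270 and 0.269 in the siFBL inputs. The change was 0.132, resting on 131 and 107 inclusion reads against 188 and 244, and on 553 and 604 skipping reads against 391 and 510. Both siFBL libraries lay above both siCtrl libraries, and the event had the smallest p of all 5218 tested (adjusted p = 0.679). With limma on log2 odds with a variance trend, 1 of the other settings tried, the same event passed at an adjusted p of 0.000855. Over the other settings, which moved the value to between 0.115 and 0.149 when a library was left out, it did not pass.

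At the AG acceptor the level was 0.553 and 0.544 in siCtrl input and 0.681 and 0.628 in siFBL input, a change of 0.106 (adjusted p = 0.874, quasi-binomial test with limma moderation). The groups did not overlap here either. The 2 events share the junction from exon 2 to exon 3, so they are not independent. Summed over both events, inclusion reads per skipping read were 0.646 and 0.554 in siCtrl input and 1.15 and 1.04 in siFBL input. With 2 libraries a group the exact permutation test (two-sided) gave p = 0.333, the smallest it can give.

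After siFUBP1 the same exon did not move in the same direction. At the TG acceptor the levels were 0.121, 0.152 and 0.182 in siCtrl2 and 0.162, 0.150 and 0.142 in siFUBP1. These overlapped, and the change was -0.000176 (adjusted p = 0.964, quasi-binomial test with limma moderation). At the AG acceptor they were 0.550, 0.554 and 0.522 in siCtrl2 and 0.489, 0.503 and 0.505 in siFUBP1. All 3 siFUBP1 libraries lay below all 3 controls, a change of -0.0431 that did not pass (adjusted p = 0.812). Inclusion reads per skipping read stood at 0.571 ± 0.0295 with siFUBP1 against 0.610 ± 0.0440 with siCtrl2 (SD over 3 libraries), and the exact permutation test gave p = 0.3.

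Under U3 ASO the level at the TG acceptor was 0.295, 0.373 and 0.312, and in GFP ASO 0.309, 0.319 and 0.367. The groups overlapped. At the AG acceptor it was 0.721, 0.706 and 0.762 under U3 ASO and 0.700, 0.675 and 0.679 in GFP ASO, a change of 0.0447 with no overlap. Inclusion reads per skipping read, which pool both acceptors, were 1.43 ± 0.151 (SD, n = 3) in GFP ASO and 1.49 ± 0.124 (SD, n = 3) in U3 ASO, and these overlapped. The share of skipping reads that used the TG acceptor was 66.3%, 67.7% and 58.3% in GFP ASO and 71.3%, 64.9% and 74.6% in U3 ASO.

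**Figure D1:**
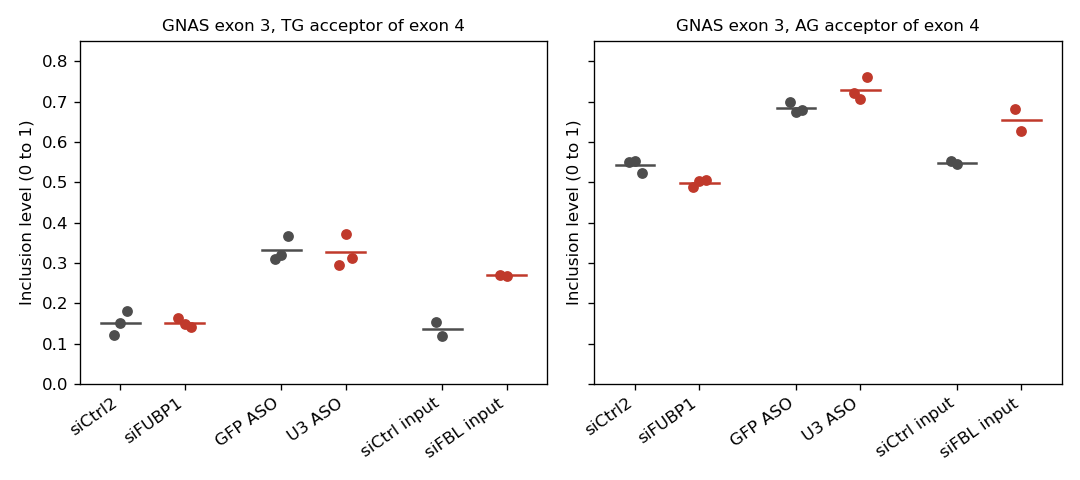
Inclusion level of GNAS exon 3 (vertical axis, 0 to 1) at the TG acceptor (left) and the AG acceptor (right) of exon 4, with 1 point per library, a line at the group mean, controls in grey and depleted groups in red. The siFBL inputs stand above the siCtrl inputs at both acceptors, and the GFP ASO and U3 ASO libraries stand above the siCtrl2 and siCtrl controls.

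The form of the transcript went with the acceptor in every library. When exon 3 was skipped, the TG acceptor took 58.3% to 74.6% of the reads over all 16 libraries. When exon 3 was included, more reads went on to the AG acceptor, since the AG event held 246 to 1415 more inclusion reads than the TG event in each library and the events share their other junction. Among annotated GNAS transcripts, 12 join exon 2 to the TG acceptor and 7 to the AG acceptor, whereas 6 join exon 3 to the TG acceptor and 19 to the AG acceptor. The control groups differed from each other in level, at 0.151 ± 0.0305 (SD, n = 3) in siCtrl2, 0.137 ± 0.0242 (SD, n = 2) in siCtrl input and 0.331 ± 0.0309 (SD, n = 3) in GFP ASO for the TG acceptor. These tables were counted separately, and GFP ASO cells were harvested later than the others. RNA preparation differed for the siCtrl inputs, since the paper describes poly(A) selection for siCtrl2 and GFP ASO and not for the RIP inputs. The paper also gives different transfection reagents for siRNA and ASO. No test was therefore made between the controls. The other GNAS exons listed, exon 2, exon 5 and exon 11, and exon 3 joined to a further acceptor at 58899949, had inclusion levels of 0.95 or more in the controls.

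PRKAR1A encodes a regulatory subunit that holds protein kinase A inactive, and its 5′ leader differed in composition between the U3 ASO and GFP ASO libraries. For the event with first exon 1b upstream, inclusion reads over both junctions of the leader exon numbered 8, 40 and 37 in GFP ASO. They numbered 230, 216 and 196 in U3 ASO. Reads skipping the leader exon from 1b numbered 493, 452 and 589 in GFP ASO and 387, 431 and 448 in U3 ASO. The inclusion level was thereby 0.0085, 0.0447 and 0.0321 against 0.239, 0.209 and 0.188. The lowest U3 ASO library lay above the highest GFP ASO library, and the change was 0.184.

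The other 3 events listed the same leader exon after other upstream donors. After first exon 1a the level was 0.0477, 0.203 and 0.0920 in GFP ASO and 0.178, 0.175 and 0.144 in U3 ASO, and these groups overlapped. After the donor at 68512970 it was 0.278, 0.554 and 0.480 in GFP ASO and 0.651, 0.660 and 0.615 in U3 ASO, without overlap. After the donor at 68512579 it was 0.679, 1 and 0.552 in GFP ASO, on 0 to 12 skipping reads a library, and 0.932, 0.934 and 0.804 in U3 ASO. Inclusion reads differed between these events by at most 27 in any library, because the junction from the leader exon to exon 2 enters each of them. The change of 0.184 after 1b and of 0.0515 after 1a therefore rests on nearly the same inclusion reads over different skipping reads. Reads of that shared junction do not show which first exon came before. The level after a given first exon is thus no measure of how often that exon joined the leader exon.

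The skipping reads themselves gave the use of the first exons, a measure chosen after the values were seen. Reads joining 1a directly to exon 2 were 12.2, 9.48 and 13.0 RPM in GFP ASO and 49.4, 44.4 and 44.9 in U3 ASO. Those joining 1b were 43.8, 36.9 and 44.7 RPM in GFP ASO and 34.3, 36.9 and 33.6 in U3 ASO. The mean of 1a was 4.00 times as high in U3 ASO and that of 1b 0.835 times as high, so that 1a went from the less used to the more used of the pair. As a share of the reads of both, 1a took 21.7%, 20.4% and 22.6% in GFP ASO and 59.0%, 54.6% and 57.2% in U3 ASO. Leader exon reads, taken at the lowest of the listed events, went from 2.03 ± 1.28 to 15.7 ± 2.72 RPM (SD, n = 3 each). A junction table shows which sites were joined and not where transcription began.

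**Figure D2:**
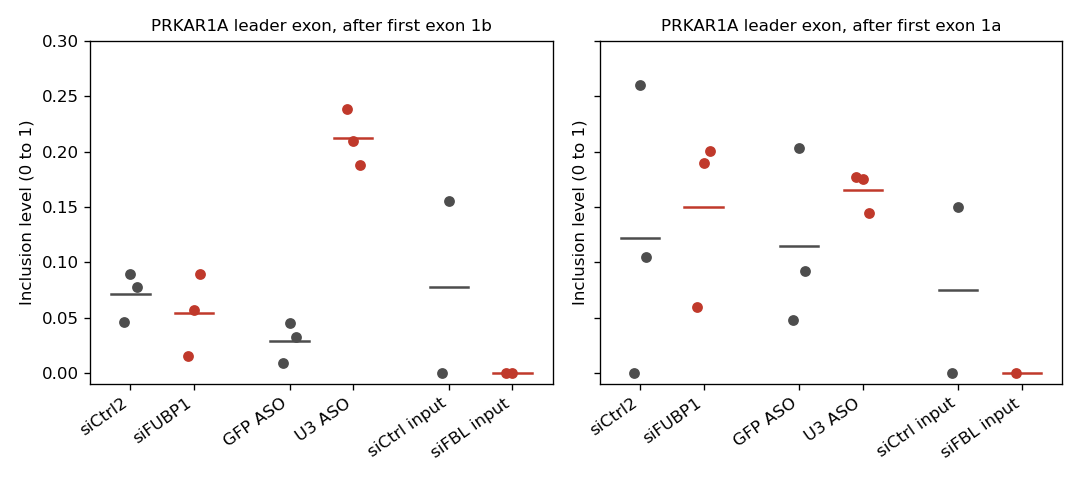
Inclusion level of the PRKAR1A leader exon (vertical axis, 0 to 1) for the events with first exon 1b (left) and first exon 1a (right) upstream. There is 1 point per library and a line at the group mean, with controls in grey and depleted groups in red. After 1b the U3 ASO libraries stand at 0.188 to 0.239 and every other library at or below 0.155, while after 1a the groups overlap.

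In the other comparisons the same exon did not pass the test. After siFUBP1 the level after 1b was 0.0458, 0.0894 and 0.0775 in siCtrl2 and 0.0153, 0.0568 and 0.0891 in siFUBP1, a change of -0.0172 (adjusted p = 0.812, quasi-binomial test with limma moderation) at a mean of 101 reads per library. The share of 1a was 7.04%, 21.0% and 17.0% in siCtrl2 and 19.7%, 19.1% and 28.0% in siFUBP1. Those groups overlapped, and the exact permutation test (two-sided) gave p = 0.3. In the inputs the level after 1b was 0 and 0.155 in siCtrl and 0 and 0 in siFBL, at a mean of 43.5 reads per library (adjusted p = 0.874). The siFBL libraries held 0 inclusion reads beside 54 and 52 skipping reads after 1b, which allows 3 counts over the group, a share of up to 2.83% of those reads. The share of 1a was 24.5% and 51.1% in siCtrl input and 0% and 38.1% in siFBL input, a spread within each group as wide as the gap between them.

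**Figure D3:**
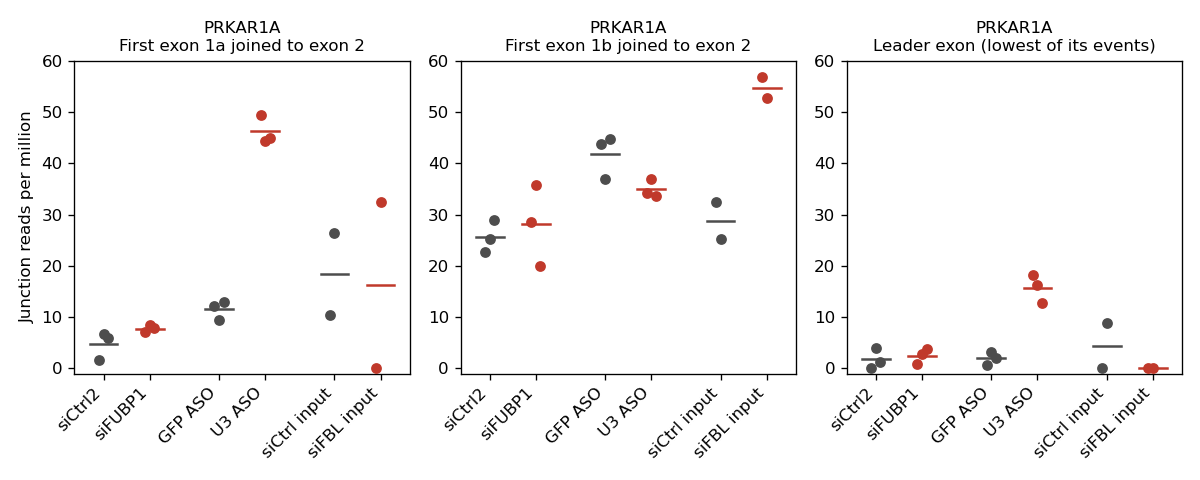
PRKAR1A junction reads RPM (vertical axis) for first exon 1a joined to exon 2, first exon 1b joined to exon 2, and the leader exon at the lowest of its events, with 1 point per library, a line at the group mean, controls in grey and depleted groups in red. Only the 1a and leader exon panels show U3 ASO above GFP ASO, at 44.4 to 49.4 against 9.48 to 13.0 RPM for 1a.

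Junction reads per gene, taken from the event with the most reads and scaled as RPM, served as a measure of RNA level. It is a share of a library's junction reads, so it gives neither RNA per cell nor the number of cells. The share of all genes whose libraries did not overlap was not counted. A lack of overlap in these reads is therefore only a description below. For PRKAR1A in the U3 table the value rests on exon 2, included at a level of 1 in every GFP ASO library. The upstream exon of that event is 1a, in the siFUBP1 table as well. Reads joining 1a to exon 2, given above, are therefore among its inclusion reads, and the gene value is not independent of them. PRKAR1A stood at 75.7, 81.6 and 79.3 RPM in GFP ASO and 155, 162 and 162 in U3 ASO. The log2 difference was 1.02, where the median gene stood at 0.27. Relative to that median PRKAR1A was higher by 0.75, and 11.2% of the 8173 genes had a higher value. After siFUBP1 PRKAR1A was at 138, 133 and 125 RPM in siCtrl2 and 138, 124 and 137 in siFUBP1 (adjusted p = 0.971, limma). In the inputs only the leader exon events were listed, so the value there follows first exon 1b alone, at 32.4 and 29.9 RPM in siCtrl and 56.8 and 52.7 in siFBL (adjusted p = 0.495, limma). GNAS stood at 572 and 753 RPM in siCtrl input and 563 and 707 in siFBL input (adjusted p = 0.927, limma), and these overlapped.

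PRKAR2A encodes the regulatory subunit that many anchoring proteins hold at membranes, and its 20 events over the 3 tables were nearly all included. All 11 tested in the U3 table and 6 of 7 in the siFUBP1 table had control levels of 0.95 or more, and changes lay between -0.0711 and 0.0537 wherever tested. Such levels are usual, since 67% and 60.9% of all events tested in those tables reached 0.95 in the controls. The exception after siFUBP1 was exon 2 of 11, a 36-base coding exon, with levels of 0.95, 1 and 0.707 in siCtrl2 and 0.972, 0.843 and 1 in siFUBP1, the lowest on 9 inclusion reads. In the U3 table the same event stood between 0.976 and 1 in every library. PRKAR2A stood at 14.6 ± 3.21 RPM with siFUBP1 against 20.7 ± 10.6 RPM with siCtrl2 (SD over 3 libraries), and these overlapped. In the inputs it stood at 40.7 and 44.5 RPM in siCtrl and 30.5 and 22.8 in siFBL, without overlap and without passing the test (adjusted p = 0.615, limma).

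PRKACA, a catalytic subunit found in most tissues, had 2 exons listed in each of the siFUBP1 and U3 tables and none in the siFBL table. Exon 2, on chromosome 19 from 14107348 to 14107409 on the minus strand, and exon 9 were included at 0.977 or more in every group. Junction reads of PRKACA were 66.6, 60.1 and 49.7 RPM in siCtrl2 and 80.3, 77.5 and 79.7 in siFUBP1. All siFUBP1 libraries lay above all controls, with a log2 difference of 0.44 ± 0.15 (SE), and at an adjusted p of 0.1002 (limma) the difference missed the threshold. It passed when all events of a gene were summed (adjusted p = 0.0516), and in the other 3 planned settings that kept all libraries (0.0619 to 0.0943). Leaving out a library gave adjusted p between 0.0981 and 0.323. None of the 6 members measured passed in this table, where 8.4% of all 5822 genes did. Under U3 ASO PRKACA read 41.8, 47.5 and 40.6 RPM against 38.5, 31.8 and 33.8 in GFP ASO, close to the shift of the median gene. There 2 of 6 members, PRKAR1A and PRKACA, were past the threshold beside 40.3% of all genes, and nothing is read from that count.

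PRKACB, another catalytic subunit, had 1 event over the 3 tables, a coding exon in the siFUBP1 table with a mean of 11 reads per library. Its level was 1 in both siCtrl2 libraries with reads and 1, 1 and 0.857 in siFUBP1.

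**Figure D4:**
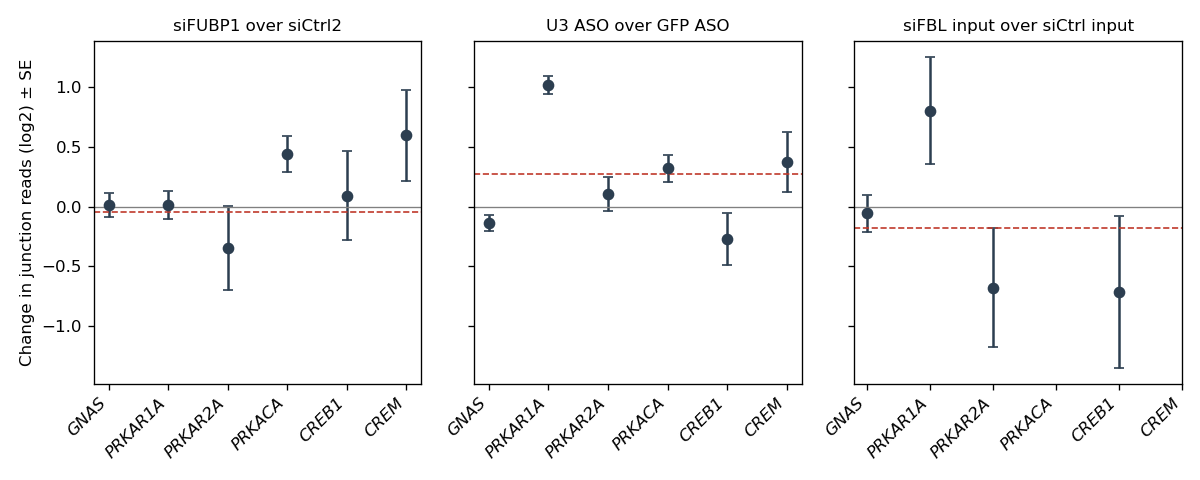
Log2 change in junction reads per gene (vertical axis, points with SE bars) for each measured member in the 3 comparisons, with the median of all genes as a dashed line. PRKAR1A stands 1.02 above GFP ASO in the middle panel, and PRKACA and CREM were not measured in the right panel.

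CREB1, the transcription factor phosphorylated by protein kinase A, has a 42-base coding exon (chr2:207561119-207561160) that was included in part of its transcripts. The exon distinguishes a longer form of the protein, and its splice sites are shown because it was the CREB1 exon furthest from full inclusion.
CREB1 42-base exon, acceptor: tcatattttttgcttcacAGtctt
CREB1 42-base exon, donor: acagGTgagtccta

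Its level was 0.533, 0.118 and 0.567 in siCtrl2 and 0.643, 0.717 and 0.609 in siFUBP1. All siFUBP1 libraries lay above all controls, but 1 control stood far below the other two, and the change of 0.251 ± 0.148 (SE) did not pass (adjusted p = 0.812, quasi-binomial test with limma moderation) at a mean of 44.2 reads per library. Under U3 ASO the levels were 0.678, 0.468 and 0.457 against 0.701, 0.404 and 0.567 in GFP ASO. In the inputs the event had 6.75 reads per library and was not tested. CREB1 stood at 13.7 ± 6.78 RPM with siFUBP1 against 12.3 ± 4.19 RPM with siCtrl2 (SD over 3 libraries). In the inputs it stood at 30.6 and 23.5 RPM in siCtrl and 15.6 and 16.7 in siFBL, again without overlap and without passing (adjusted p = 0.682, limma).

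CREM, which yields activators and repressors of the same target genes by alternative splicing, had the most events, 25 over 7 exons. A 124-base exon (chr10:35148368-35148491), exon 3 of 8 in the canonical transcript, had the most reads among those partly included. Its level was 0.760, 0.782 and 1 in siCtrl2 and 0.367, 1 and 0.560 in siFUBP1, so the siFUBP1 libraries spread over more than the gap between groups (change -0.205, adjusted p = 0.812, quasi-binomial test with limma moderation). In the U3 table it was 0.872, 0.772 and 0.535 in GFP ASO and 0.914, 0.711 and 0.741 in U3 ASO. In the inputs it was 1 and 0.508 in siCtrl and 1 and 1 in siFBL at 14 reads per library. Junction reads of CREM were 7.19, 7.18 and 7.35 RPM in siCtrl2 and 14.2, 9.26 and 10.1 in siFUBP1, without overlap (log2 difference 0.60 ± 0.38 SE, adjusted p = 0.423, limma). CREM exons were covered thinly, and 7 of its 25 events were below the minimum of 10 reads.

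FUBP1 RIP enrichment divided the 7 genes. In siCtrl the log2 enrichment over input was 2.97 ± 0.16 (SE) for PRKACB, 2.75 ± 0.11 for CREB1, 2.51 ± 0.05 for PRKAR1A, 1.47 ± 0.27 for CREM and 1.06 ± 0.07 for PRKAR2A. PRKACA, at -1.93 ± 0.12, and GNAS, at -0.79 ± 0.06, were recovered less than in the input. Thus the 2 catalytic subunits stood at opposite ends, PRKACB with 6.8% of the 14242 tested genes above it and PRKACA with 77.4% above it. Above 1 were 5 of 7 members and 35.7% of all tested genes, and above 0 the same 5 and 51.2%. Between neighbours in this order the 95% interval of the difference held 0 for PRKACB and CREB1 and for CREM and PRKAR2A, whereas it reached 0.01 for CREB1 and PRKAR1A.

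After siFBL the enrichment fell for 3 of the 7 genes (z test on the deposited log2 values, adjusted over all 14242 genes), where 6.64% of all genes were called lower and 5.36% higher, 12% in all. PRKACB went from 2.97 to 2.16 ± 0.17, a difference of -0.82 with a 95% interval from -1.28 to -0.35 (adjusted p = 0.00988). CREB1 went from 2.75 to 2.26 ± 0.10, a difference of -0.49 with an interval from -0.77 to -0.21 (adjusted p = 0.0109). PRKAR2A went from 1.06 to 0.78 ± 0.07, a difference of -0.28 with an interval from -0.48 to -0.07 (adjusted p = 0.0708). Among the 7295 genes with enrichment above 0 in siCtrl, 12.6% were called lower.

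PRKAR1A stood at 2.51 in siCtrl and 2.53 ± 0.04 in siFBL, and the interval of its difference ran from -0.11 to 0.15 (adjusted p = 0.928). Its authors' mean normalised count, 39605 in siCtrl, was the highest of the 7. That count pools RIP and input libraries, so enrichment raises it. By junction reads GNAS stood higher, at 376 RPM against 132 for PRKAR1A in siCtrl2. The interval of PRKAR1A does not hold the differences of PRKACB, CREB1 and PRKAR2A. CREM differed by -0.28 with an interval from -0.93 to 0.36 (adjusted p = 0.725), which holds all of these. GNAS differed by 0.09, with an interval from -0.05 to 0.22 (adjusted p = 0.557). PRKACA differed by 0.09, with an interval from -0.28 to 0.45 (adjusted p = 0.872). The deposited table gives 1 estimate per condition from 2 RIP and 2 input libraries, so values per library were not seen. FUBP1's own lower mean count in siFBL moved with these differences, as did the lower input junction reads of CREB1 and PRKAR2A, and their part in them was not tested.

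**Figure D5:**
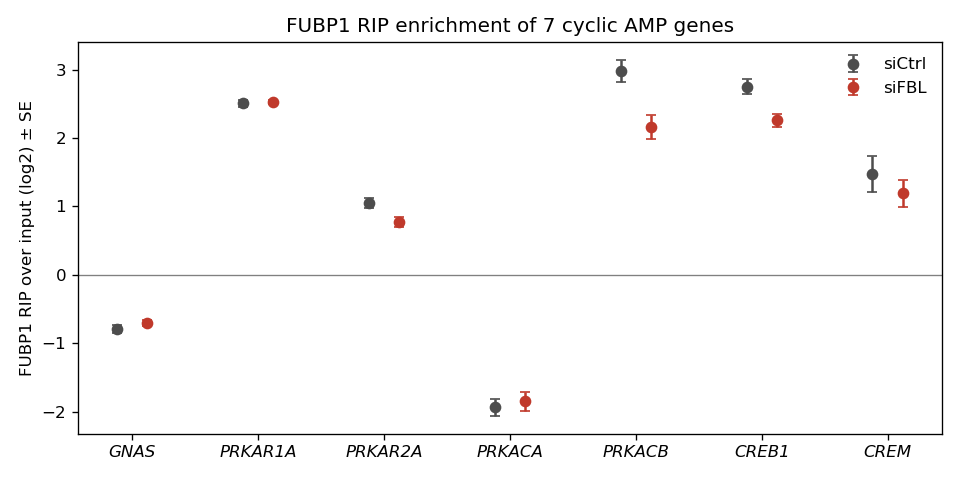
FUBP1 RIP over input (log2, vertical axis) for the 7 genes in siCtrl (grey) and siFBL (red), points with SE bars as deposited. PRKACB, CREB1 and PRKAR2A stand lower in siFBL, PRKAR1A stands at 2.51 and 2.53, and PRKACA and GNAS lie below 0.

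The rest of the pathway was followed in a list of 79 further genes, ordered by role. Of 23 genes measured after siFUBP1, 1 passed for junction reads, beside 3.97% of all genes upwards. It was NR4A1, an immediate early transcription factor induced by cyclic AMP, at 2.39 RPM in siCtrl2 and 9.86 in siFUBP1 (log2 2.36 ± 0.65 SE). Its siCtrl2 reads lay near or below the minimum mean of 10, which the gene met through the siFUBP1 libraries. Nothing is therefore read from this call. In the inputs 0 of 9 passed, beside 2.37% of all genes. Under U3 ASO 14 of 33 were past the threshold upwards and 0 downwards, beside 31.1% of all genes upwards, and their median log2 difference was 0.36 against 0.27 for all genes. They included the anchors AKAP8L, at 10.9 RPM in GFP ASO and 28.3 in U3 ASO, and AKAP10, at 2.74 and 6.36. The coactivators CREBBP, EP300 and CRTC2 were also among them, as was PPARGC1A, which drives gluconeogenic genes in fasting, at 4.47 and 9.14 RPM. Also past the threshold were the cyclase ADCY9, the G protein subunits GNAI1, GNAI2, GNB1 and GNG5, the transcription factor CREB3, and PER1. The phosphodiesterase PDE4C stood at 0.123 and 5.19 RPM. It lay below the minimum mean of 10 reads in GFP ASO and met it only through U3 ASO, so the size of its difference is not read. Of the list's 53, 119 and 15 events tested in the siFUBP1, U3 and siFBL tables, 0 were called, beside 0.197%, 0.226% and 0% of all events (quasi-binomial test). At an unadjusted p under 0.05 there were 2, 3 and 0, beside 4.58%, 4.13% and 2.26% of all events.

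Of the 79 genes, 54 were tested in the RIP table, of which 4 fell and 3 rose after siFBL, beside 6.64% and 5.36% of all genes, shares near those of the list. Lower were the anchor AKAP11 (2.75 to 2.18, adjusted p = 3.5e-06), the phosphodiesterases PDE3B (1.98 to 1.67, adjusted p = 0.00241) and PDE7A (3.20 to 2.39, adjusted p = 0.0807), and PPARGC1A (2.87 to 2.15, adjusted p = 6.0e-05). Higher were the anchors AKAP1 (-0.96 to -0.59), AKAP12 (-0.33 to -0.06) and AKAP9 (0.65 to 0.93). The median difference over the list was -0.00575, and -0.00249 over all genes. Phosphodiesterases had the highest median enrichment in siCtrl among the roles with more than 3 genes tested, 1.98 over 9 genes, 7 of them above 1. Adenylyl cyclases had a median of -0.47 over 5 genes, 0 of them above 1. Over all tested genes the median was 0.08, and 35.7% were above 1.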

How the data were processed

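The authors trimmed reads with Cutadapt, aligned them to hg38 with HISAT2 (--pen-noncansplice 12), counted genes (HTSeq in the methods, featureCounts in the labels), ran DESeq2 for RIP over input and rMATS for skipped exons from junction reads. Versions are not given in the sources used here. The deposited event tables hold lists of inclusion and skipping junction read counts per library (another unit than a gene count table), and the deposited RIP table holds log2 enrichments with their SE and a mean normalised count (a score). The authors' p-values, FDR, inclusion levels and level differences in 6 columns were not used.

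Inclusion levels were recomputed. Events with a mean of at least 10 reads were tested by a quasi-binomial F test with dispersion moderated by limma 3.58.1 (R 4.3.3), Benjamini-Hochberg over all events, threshold 0.1. Junction reads per 1000000 (log2, 0.5 added) were tested with limma over genes with a mean of at least 10. RIP differences were divided by the root of the summed squared SE (genes averaging 10 or more counts, none with an enrichment of exactly 0). Scripts were tested on simulated data. The 95% intervals of RIP differences rest on the deposited SE, and the floor covers counting error only. Exons were matched to GENCODE 44. All 7 members are named, with per-library values for the PRKAR1A leader exon, events with an unadjusted p under 0.05 and the most covered partly included event of each member. Other pathway genes are named where called. Members and lists were chosen with earlier results of these data known. Library positions within a table carry no replicate number.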

Additional observations from a re-analysis of the deposited data

Results flagged for a closer look

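The inclusion level of GNAS exon 3 at the AG acceptor differed from its controls in opposite directions between comparisons, with no overlap of libraries in any of them: by -0.0431 after siFUBP1, 0.0447 under U3 ASO and 0.106 after siFBL. None of the 3 differences was called. Libraries did not overlap in 5.05%, 6.03% and 13.8% of all events tested after siFUBP1, under U3 ASO and after siFBL. At the TG acceptor the libraries overlapped after siFUBP1 (-0.000176) and under U3 ASO (-0.00459), and did not after siFBL (0.132). Inclusion reads per skipping read, pooled over both acceptors, also overlapped after siFUBP1 and under U3 ASO and did not after siFBL. Their means were 1.43 in GFP ASO and 1.49 in U3 ASO. The difference between the comparisons was not tested. Each comparison has its own controls and its own table.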

How the results depend on the processing

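Of 243 values recomputed under other settings, 220 were rated as unchanged. Counts of calls were rated by staying equal or close, and other values by direction and side of the threshold. U3 ASO values were rated on size alone, within the replicate SD for events and within the SE for genes. Read minimum, dispersion and test method cannot move an inclusion difference, so under those settings the U3 ASO events were bound to be rated unchanged. No paired analysis was possible because the positions in the deposited read lists carry no replicate number, so the replicate block was not run. Member events called numbered 0 with limma on log2 odds in the U3 table, where 0 of all events were called, and 2 with a variance trend, where 265 were called against 68. The set was chosen by the PRKAR1A event among these, so nothing is read from the U3 counts. With that variance trend 1 member event was called after siFBL, GNAS exon 3 at the TG acceptor, and 6 of all events against 0. Member genes called after siFUBP1 numbered 1, PRKACA, when events were summed, when 2 was added before the log, when the 20 events with the most reads were left out of the total, and with a minimum of 50 reads. They ranged from 0 to 1 over left-out libraries, with 1 without the siCtrl2 library in position 1. Under U3 ASO they ranged from 1 to 3, with 1 without the U3 ASO library in position 2. Leaving out a library turned the sign of 4 values, none of them called. After siFUBP1 the PRKAR1A leader exon after 1b ranged from -0.0349 to 0.00205, GNAS exon 3 at the TG acceptor from -0.0155 to 0.015, and PRKAR1A junction reads from -0.0255 to 0.0625 (log2). Under U3 ASO, GNAS exon 3 at the TG acceptor ranged from -0.0276 to 0.0131. After siFBL the PRKAR1A leader exon after 1b ranged from -0.155 to 0 without turning, the inclusion reads all coming from 1 siCtrl library. Calls over all events after siFUBP1 ranged from 8 to 84 against 32, and over all genes after siFBL from 2 to 101 against 65. In siFBL each group has 2 libraries, so leaving out 1 assumes that the lone library varies like the others. The 3 RIP calls remained 3 under the 4 settings tried. With dispersion set at the larger of own and trend, chosen after seeing the data, member counts did not change. Depth left 73 of 82 member events at or above the minimum of 10 reads, and 18 of 25 for CREM.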
